A study of Mus spretus with 12 samples.

Results

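The effect of adding Pedro Ximenez grape must to a diet with p,p'-DDE was read from 8 of the 12 liver arrays of the series, the 4 arrays of mice given p,p'-DDE and must against the 4 arrays of mice given p,p'-DDE without must. The members are the arrays carrying those 2 titles in the labels, and they were compared across all 18678 genes that passed the filter on dim probes. All mice were males of SPRET/EiJ, a wild-derived inbred strain of Mus spretus, aged 20 months when feeding began and 22 months at sampling after 60 days. The DDE group (4 arrays) ate Teklad diet with p,p'-DDE, a long-lived metabolite of the insecticide DDT, at 450 mg/kg in corn oil. The DDE_PXM group (4 arrays) received that same p,p'-DDE diet, and its water contained the must, with polyphenols at 85 mg/L in total and sugar, glucose and fructose in equal parts, at 31 g/L. The control group (4 arrays), used here for reference levels only, ate Teklad diet with corn oil and had neither agent. No group had p,p'-DDE with sugar water alone, so polyphenols and sugar cannot be told apart. The design text gives 4 mice for the must group and 4 for the control group, and whether each array held 1 mouse or a pool is not given in the sources used here. The p-values therefore measure the spread between these arrays, which may be in part technical.

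The liver makes new fatty acids from acetyl-CoA when sugar is plentiful, using enzymes switched on by the factors SREBP-1c and ChREBP, the latter responding to sugar metabolites. Fructose enters this route through ketohexokinase and triokinase and so passes the main control step of glycolysis. The liver also makes the acute-phase proteins of blood plasma under control of interleukin-6 and interleukin-1, and it clears foreign lipophilic compounds with cytochrome P450 enzymes switched on by the receptors CAR and PXR. Polyphenols of grapes are best known as antioxidants and as activators of NRF2, the factor that drives glutathione synthesis and quinone reduction.

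Each gene was read by DNA probes of 60 bases. The probes below, given with mm9 positions, are shown because they show what was hybridised at 2 lipogenic genes and 2 acute-phase genes whose signals lay wholly apart between the groups. All letters are in lower case, since no position within them was singled out.
Acly, minus strand of chr11:100365518-100365577: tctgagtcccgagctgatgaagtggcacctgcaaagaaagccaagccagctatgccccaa
Pklr, plus strand, between chr3:88948907-88949425: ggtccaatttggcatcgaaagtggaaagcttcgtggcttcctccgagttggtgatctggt
Saa1, minus strand of chr7:53996070-53996129: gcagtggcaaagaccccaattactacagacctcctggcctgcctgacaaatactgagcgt
Lcn2, minus strand, between chr2:32241037-32241281: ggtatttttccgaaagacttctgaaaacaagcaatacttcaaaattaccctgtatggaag
The Pklr and Lcn2 probes have genome spans longer than 60 bases, as probes across exon junctions do. The change with must was 1.21 ± 0.086 (SE) on the log2 scale for the Pklr probe and -2.75 ± 0.047 for the Saa1 probe. The Acly and Lcn2 probes shown are not the brightest of their genes and gave 2.24 ± 0.19 and -3.57 ± 0.14, against 1.98 and -2.81 for the brightest probes used below. Their sequences follow the laboratory mouse, and how well they match Mus spretus transcripts was not analysed here.

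Levels below are log2 of the array's processed signal relative to its 75th percentile, and a change is DDE_PXM minus DDE on that scale with its standard error. Between 50.1% and 52.0% of the spots of the 12 arrays were well above background, and no spot was saturated. The 75th percentile of the signal was 551 to 662 on the DDE arrays and 692 to 710 on the must arrays, without overlap. Array brightness thus differed with group, and its part in the small changes was not tested. A gene was called, and is said to have risen or fallen, where limma's adjusted p over all genes was under 0.05. Of 18678 genes, 9320 (49.9%) were called, 3781 (20.2%) higher with must and 5539 (29.7%) lower. The median size of a called change was only 1.29-fold, and calls of 2-fold or more were 256 higher (1.37%) and 427 lower (2.29%). The 4 values of one group lay wholly apart from the 4 of the other for 8355 genes (44.7%). With so many genes called, a share of called members close to these percentages says nothing about a group of genes. The share of higher genes among those called was 40.6%, and it depended on the scaling: it was 36.9% with normexp background correction, 52.2% with quantile normalisation, 52.6% with both together and with the authors' deposited values, and 66.3% when arrays were centred on their medians. The median change over all genes was -0.04 and moved to 0.10 with that centring, so lists are given with their range over those 5 other scalings, in the order of the counts they follow. Normexp with its offset also shrinks the changes of dim genes, and where an alternative moved a called change by more than 1.5-fold, the range of the log2 change over the alternatives is given. On the 3 slides that held an array of each group, 98.5% to 99.5% of the called genes had the same sign within the slide. Those genes were called from these same arrays, so such agreement was largely built in and is no separate support.

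**Figure D1:**
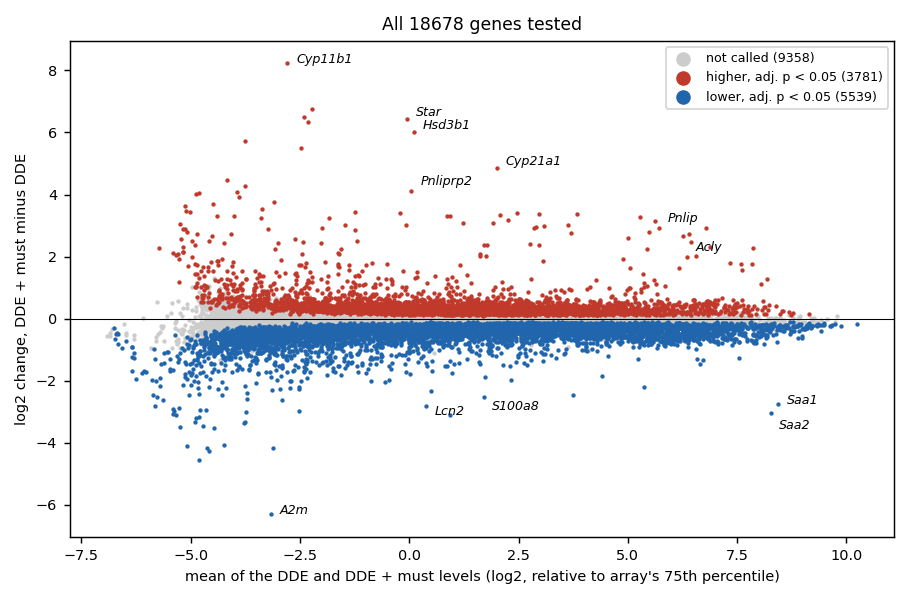
Change with must on the log2 scale (vertical axis) against the mean level of the gene relative to the array's 75th percentile (horizontal axis), 1 point per gene for 18678 genes, coloured by whether the gene was called higher (3781), called lower (5539) or not called. Most called genes lie close to 0, with a median size of 1.29-fold, and genes with falls outnumber those with rises among changes of 2-fold or more (427 against 256).

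The genes of new fatty acid synthesis rose together. Of 27 genes on the list of fatty acid synthesis and NADPH supply, all measured, 23 rose and 3 fell, and 11 of the 23 rose by 2-fold or more. The list's median change was 0.96, against -0.04 for all genes. Over the other scalings 23 to 24 members rose and the median was 0.94 or more, and within the 3 slides it lay between 0.84 and 0.97. For Fasn, the multi-enzyme that builds palmitate, the 4 DDE arrays read 6.78, 6.70, 6.71 and 6.63 and the 4 must arrays 8.44, 8.48, 8.42 and 8.53. Every must array was higher than every DDE array, and the rise was 3.39-fold (log2 1.76 ± 0.047, limma adjusted p = 3.4e-09). The control level of Fasn, 7.11, was read on 2 arrays only, since its spot was an outlier on the others. Srebf1, the gene of the SREBP-1 factors, read 5.36, 5.28, 5.33 and 5.29 without must and 6.33, 6.40, 6.36 and 6.39 with it, a rise of 2.08-fold. The groups did not overlap, and the DDE arrays lay below the control mean of 5.73 ± 0.05 (SD, n = 4) while the must arrays lay above it.

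Acly, which makes cytosolic acetyl-CoA from citrate, stood at 5.36 ± 0.04 (SD, n = 4) with p,p'-DDE, 7.34 ± 0.04 with must and 6.05 ± 0.10 in the controls. Acss2, which makes acetyl-CoA from acetate, rose by 1.43 ± 0.048 on its brightest probe (0.68 to 1.74 over the alternatives). Its 4 kept probes disagreed, from -0.83 to 1.68, and probes in both directions were called, so the change of Acss2 depends on the transcript stretch read. Elovl6, which lengthens palmitate, rose 3.08-fold and G6pdx, the first enzyme of the pentose phosphate route to NADPH, 2.55-fold. For Pnpla5, a lipase-family gene of the fed liver, the DDE arrays read 0.38, 0.72, 0.57 and 0.70 and the must arrays 2.78, 2.57, 2.77 and 2.39. That rise of 4.09-fold was the largest on the list, and its relative Pnpla3 rose 3.64-fold. Elovl6, Pnpla3 and Pnpla5 fall outside the naming rule and were chosen after their values were seen, as were the exceptions named next and in the lists that follow. The 3 members that fell were Insig2, which holds SREBP precursors in the endoplasmic reticulum (-0.59 ± 0.052), Elovl3, a very-long-chain elongase (-0.50 ± 0.064), and Rgs16, a regulator of G protein signalling (-0.35 ± 0.050). Rgs16 was not called with quantile normalisation, where its change was -0.13. The 1 member not called was the desaturase Fads2, at 0.09 ± 0.066 on its brightest probe. Another of its 4 kept probes was called higher by 0.25 (adjusted p = 0.010), and Fads2 was called higher in 5 of 26 alternatives. Several of these enzymes are also high in fat cells. The summed linear signal of 15 adipocyte markers was 98.1 to 113 with p,p'-DDE, 98.8 to 120 with must and 111 to 125 in the controls. Dim members weigh little in that sum, such as Adipoq at -2.48 with p,p'-DDE and -0.78 with must. Of the 15 markers 7 rose and 4 fell, with log2 changes from -0.74 to 1.71. The part of fat cells in the result was not tested.

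Genes of triglyceride assembly did not follow the synthesis genes as a group. Of 23 measured members, 5 rose and 10 fell, with a median of -0.11 (5 to 9 rises, 8 to 10 falls and a median of -0.10 to 0.03 over the other scalings). The 5 included Gpam, which starts glycerolipid synthesis (2.15-fold, 4.95, 5.23, 5.13 and 5.08 without must and 6.30, 6.09, 6.24 and 6.19 with it), and the acyltransferases of the last step, Dgat1 (1.35-fold) and Dgat2 (1.31-fold). Plin4, a droplet coat protein, rose 1.65-fold to 0.42, short of its control mean of 1.04. Among the members that fell were the inhibitors of the lipase ATGL G0s2 (2.03-fold lower) and Hilpda (1.87-fold lower) and the phosphatidate phosphatase Lpin1 (1.66-fold lower). For G0s2 the DDE arrays read 3.96, 3.89, 3.91 and 3.93 and the must arrays 2.87, 2.92, 2.82 and 2.99, with the control mean at 4.36 ± 0.08.

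Cholesterol synthesis and uptake rose by smaller amounts. Of 25 genes, 24 were measured, 20 rose and 1 fell, with a median of 0.37 (0.39 to 0.61 over the other scalings, with 21 to 22 members higher). None reached 2-fold. Dhcr7, the last step of the pathway, read 3.48, 3.54, 3.67 and 3.67 without must and 4.43, 4.67, 4.61 and 4.47 with it, a 1.94-fold rise (log2 0.95 ± 0.071, adjusted p = 1.0e-06). Its groups did not overlap, and its control mean of 3.28 ± 0.09 lay below both. Lss, which closes the sterol rings, rose 1.63-fold from 4.83, 4.77, 4.79 and 4.79 to 5.55, 5.46, 5.49 and 5.52. The single fall was Idi1 (-0.23 ± 0.070), whose groups overlapped and whose call was lost in 7 of 26 alternatives, among them leaving out DDE array 2, must array 2 or must array 3. The adrenal cortex, markers of which are given further on, also makes and takes up cholesterol. The summed signal of its 14 measured markers was 350 to 376 with p,p'-DDE and 364 to 380 with must. That sum comes mostly from bright members that liver also expresses. Of the 14 markers 10 rose and 3 fell, with log2 changes from -0.83 to 8.23. The part of the adrenal cortex in the result here was not tested.

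Of 35 genes of fructose and glucose metabolism, 17 rose and 6 fell (17 to 23 and 3 to 6 over the other scalings), with a median of 0.11 (0.13 to 0.31). Without DDE array 2 the count of rises was 11. Pklr, the liver pyruvate kinase and a textbook ChREBP target, read 0.53, 0.48, 0.36 and 0.46 without must and 1.51, 1.74, 1.61 and 1.83 with it. Its control mean of 0.49 ± 0.15 matched the DDE arrays within their spread, and the must arrays alone were higher. Tkfc, the triokinase of the fructose route, read 3.86, 3.53, 3.55 and 3.71 and then 4.78, 4.93, 4.82 and 5.04, a 2.35-fold rise over a DDE level that again lay at the control mean of 3.64 ± 0.08. Khk, the ketohexokinase that precedes it, rose 1.32-fold from 8.19 ± 0.08 to 8.59 ± 0.03, its control mean being 8.59 ± 0.06. Gpi1, phosphoglucose isomerase, rose 1.53-fold and Pygl, liver glycogen phosphorylase, 1.43-fold.

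The members of the list that fell included Pdk4, the kinase that shuts pyruvate dehydrogenase in fasting (1.70-fold lower), Txnip, a glucose-responsive inhibitor of thioredoxin and of glucose uptake (1.34-fold lower), and Ldha, lactate dehydrogenase (1.29-fold lower, not called with both corrections together or with the deposited values). Txnip read 4.76, 4.68, 4.80 and 4.82 without must and 4.32, 4.39, 4.27 and 4.40 with it, close to the control mean of 4.29 ± 0.04. Its direction was thus opposite to that of Pklr. The other kept Txnip probe changed by -0.23 and was not called (limma adjusted p = 0.062 over all probes).

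**Figure D2:**
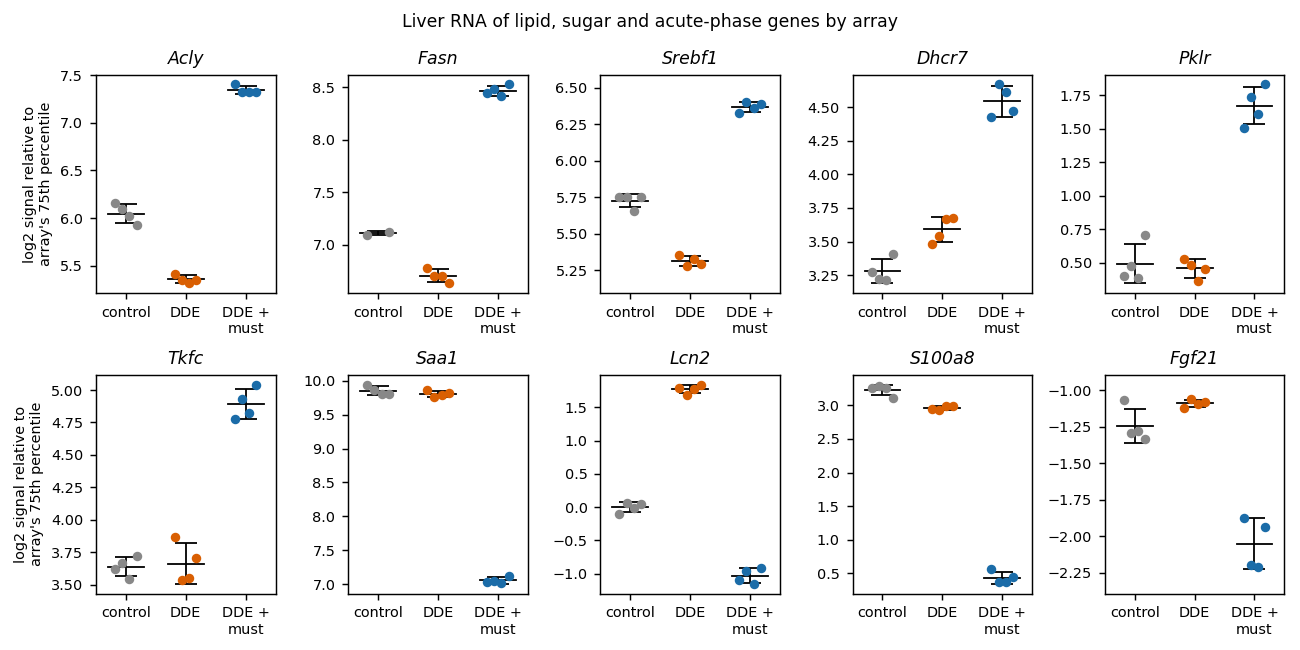
Levels of 10 liver genes by array (vertical axes, log2 signal relative to the array's 75th percentile, each panel with its own range) in the control, DDE and DDE + must groups. Points are the 4 arrays of a group, horizontal lines the means and error bars the SD. Acly, Fasn, Srebf1, Dhcr7, Pklr and Tkfc were higher in all 4 must arrays than in any DDE array, and Saa1, Lcn2, S100a8 and Fgf21 were lower in all 4. Fasn has 2 control points.

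Fasting and fatty acid oxidation genes under PPARA, the receptor that switches on fat burning, gave 16 falls and 1 rise among 35 measured of 36 members. The median was -0.19, but it lay between -0.18 and 0.04 over the other scalings, with 8 to 16 members lower and 1 to 8 higher. The falls that held under every alternative included Pex11a, a peroxisome proliferation factor (1.97-fold lower), Fgf21, a fasting hormone of the liver (1.95-fold lower), Angptl4, an inhibitor of lipoprotein lipase (1.81-fold lower), Acot1, a cytosolic acyl-CoA thioesterase (1.75-fold lower), and Vnn1, a pantetheinase (1.67-fold lower). Fgf21 read -1.12, -1.06, -1.09 and -1.08 without must and -1.87, -2.19, -2.21 and -1.94 with it, below its control mean of -1.24 ± 0.12. Cyp4a14, the member most often used as a PPARA readout, was not called: it read -2.87, -3.49, -3.51 and -3.26 without must and -3.26, -3.11, -3.09 and -3.01 with it, and the groups overlapped. It was called higher without DDE array 1 (0.30), and its sign turned with normexp (-0.03). The 1 rise was Cyp4a12a, a male-biased fatty acid hydroxylase, at 1.45-fold.

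The acute-phase plasma proteins fell. Of 31 genes, all measured, 24 fell and 2 rose, 8 of the falls being 2-fold or more, and the median was -0.41 (-0.38 to -0.23 over the other scalings, with 17 to 23 lower and 2 to 6 higher). Within slides the median lay between -0.45 and -0.37. Saa2, a serum amyloid A of high-density lipoprotein, read 9.93, 9.61, 9.78 and 9.83 without must and 6.76, 6.53, 6.77 and 6.92 with it, an 8.24-fold fall (log2 -3.04 ± 0.086, adjusted p = 2.5e-10). Saa1 read 9.86, 9.76, 9.79 and 9.82 without must and 7.04, 7.05, 7.02 and 7.13 with it. For both genes the control mean was 9.85, so the arrays of mice without must were alike and the must arrays stood alone, and because Saa1 and Saa2 are near-identical in sequence their signals may be shared. Orm1, orosomucoid, fell 2.43-fold from 8.19 ± 0.02 to 6.91 ± 0.03, also below the control mean of 7.74. Fgl1, a hepatocyte-secreted fibrinogen-like protein that is not on this list, fell 4.62-fold on its brightest probe and by 0.49 on the log2 scale on its other kept probe (-2.23 to -1.35 over the alternatives).

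A2m, the protease inhibitor alpha-2-macroglobulin, read -0.15, 0.01, 0.03 and 0.05 without must and was not well above background on any must array. Its fall is therefore given as a bound, in which each must array was set to the lowest level of any probe well above background on it, or to the A2m level where that was higher. Against the mean of these 4 levels it was at least 29.8-fold lower with must. This bound and those below hold for the processing used here: with normexp, whose offset lifts dim signals, the estimates were smaller, the A2m change for example reaching -2.99. In the controls A2m stood at -3.33 ± 0.36, between the 2 groups. Lcn2, the iron-scavenging lipocalin made by hepatocytes and neutrophils, fell from 1.78 ± 0.07 to -1.03 ± 0.11, past the control mean of 0.00 ± 0.07. The members that rose were the hepcidin genes Hamp (1.22-fold) and Hamp2 (1.19-fold), near-identical copies that encode or resemble the hormone blocking iron export. The metallothioneins, metal-binding proteins that are also acute-phase genes and are on this list, fell as well: Mt2 read 5.39, 5.24, 5.34 and 5.29 without must and 3.52, 3.52, 3.47 and 3.41 with it, and Mt1 fell 2.45-fold.

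Neutrophil genes were also lower in the must arrays. In whole liver RNA, fewer cells of a type and less RNA per cell cannot be told apart. Of 17 neutrophil markers 13 were measured, 11 fell and 1 rose, with a median of -0.84 (11 to 12 falls and -0.81 to -0.66 over the other scalings). Ngp, Mmp8, Mmp9 and Fcnb were not above the filter. The summed linear signal of the 13 was 117 to 119 in the controls, 90.5 to 95.6 with p,p'-DDE and 45.2 to 52.9 with must. S100a9, a calcium-binding protein that fills the neutrophil cytosol, read 5.07, 4.91, 5.01 and 4.90 without must and 2.53, 2.54, 2.38 and 2.62 with it. Its partner S100a8 fell 5.77-fold and Prtn3, the granule protease proteinase 3, 7.88-fold from -1.04 ± 0.11 to -4.02 ± 0.19 (-3.06 to -1.73 over the alternatives). Retnlg, a neutrophil resistin-like protein, fell 3.32-fold. Of the defining markers, Csf3r, the G-CSF receptor, fell 1.30-fold, and Ly6g was not called (-0.30 ± 0.12, adjusted p = 0.059), although it was called lower in 6 of 26 alternatives, among them leaving out array 1 of any group. The member that rose was Itgam, an integrin chain shared with macrophages (1.16-fold), whose groups overlapped and whose call was lost in 10 of 26 alternatives, among them leaving out control array 2, DDE array 1 or 3, or must array 1 or 3. S100a8, S100a9 and Lcn2 are also made outside neutrophils in inflammation, and how much of their fall came from which cells was not tested.

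Macrophage and lymphocyte genes were lower by less. None of 17 Kupffer cell and macrophage markers rose and 14 fell (11 to 14 over the other scalings), with a median of -0.37, and their summed signal was 134 to 138 in the controls, 111 to 115 with p,p'-DDE and 82.7 to 88.7 with must. Lyz2, lysozyme, fell 1.72-fold and Clec4f, a lectin that defines Kupffer cells, 1.25-fold (1.99, 1.87, 1.93 and 1.95 without must, 1.53, 1.66, 1.62 and 1.63 with it). Of 14 measured T and NK cell markers 9 fell and 0 rose (6 to 12 falls over the other scalings). Their summed signal, 30.6 to 48.5 with p,p'-DDE and 28.4 to 32.5 with must, overlapped between the groups. The granzyme Gzma fell 2.09-fold and Cd3d, a chain of the T cell receptor complex, 1.50-fold. Of 9 measured B and plasma cell markers 4 fell and 0 rose (2 to 6 falls over the other scalings). The largest of these falls was that of Jchain, the joining chain of secreted antibodies, by 2.18-fold from 0.33 ± 0.09 to -0.79 ± 0.04.

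Among 20 measured cytokine and chemokine genes, 11 fell and 4 rose (8 to 11 and 3 to 6 over the other scalings). The chemokines Ccl2 (1.61-fold), Cxcl10 (1.57-fold), Ccl4 (1.72-fold) and Ccl9 (1.52-fold) were lower. Cxcl10 read 2.34, 2.55, 2.52 and 2.44 without must and 1.88, 1.79, 1.74 and 1.82 with it, still above the control mean of 0.65 ± 0.07. Spp1, osteopontin, was among the 4 that rose, at 1.15-fold with overlapping groups and a call lost in 5 of 26 alternatives, leaving out DDE array 1 or 4 or must array 1 or 4 among them. Tnf was not called (-0.09 ± 0.096, adjusted p = 0.48), and its sign turned with median centring.

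Interferon-stimulated genes were mostly lower with must. Of 35 measured members 22 fell and 3 rose, with a median of -0.29 (-0.25 to -0.15 over the other scalings, with 18 to 23 lower and 2 to 8 higher). Isg15, the ubiquitin-like protein of the antiviral response, read 2.25, 2.41, 2.43 and 2.40 without must and 1.33, 1.24, 1.21 and 1.31 with it, a 2.14-fold fall below the control mean of 2.46 ± 0.13. The GTPase Mx1 (1.65-fold), the oligoadenylate synthetase Oas2 (1.87-fold), the chaperone Rtp4 (1.68-fold) and the nucleic acid sensor Zbp1 (1.81-fold) fell as well. The other kept Zbp1 probe changed by -0.49 and was not called (limma adjusted p = 0.44 over all probes). The 3 that rose, each by under 1.2-fold, were Igtp and Irgm2, GTPases induced by interferon gamma, and Oasl1, whose call was lost with the deposited values.

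The 4 P450 genes of CAR and PXR fixed by name were not called different between the groups on their brightest probes. This depends on the scaling, since all 4 were called higher with quantile normalisation, with both corrections together and with the deposited values. Cyp2b10, the standard CAR target, stood at 8.91 ± 0.06 (SD, n = 4) without must and read 8.92, 8.93, 8.92 and 8.94 with it, against 2.55 ± 0.06 in the controls. The must arrays lay inside the spread of the DDE arrays. The change was 0.02 ± 0.044 (adjusted p = 0.73) on this probe, while the other kept Cyp2b10 probe was called higher, by 0.28 (adjusted p = 0.0047 over all probes). The change of the gene ranged from 0.00 to 0.42 over the alternatives, with a call in 5 of them, all higher. Cyp2b9 differed by -0.02 ± 0.055, Cyp2c29 by -0.11 ± 0.050 and Cyp3a11, the main PXR target, by 0.08 ± 0.056, none of them called. Cyp3a11 stood at 6.77 in the controls, 7.50 without must and 7.57 with it, and it was called higher in 4 of 26 alternatives, by up to 0.37, namely the scalings other than normexp alone. The signs of Cyp2b9 and Cyp2c29 turned to higher with quantile normalisation, with both corrections together and with the deposited values. These P450 families hold close paralogs that a probe may share. The comparison of p,p'-DDE with control uses the same 4 DDE arrays, so control levels here are for reference only.

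Of 38 measured members of the CAR and PXR list 8 rose and 8 fell, and over the other scalings 10 to 20 rose and 4 to 7 fell. Over all genes 20.2% rose and 29.7% fell, so the first 2 counts say nothing about the list as a group. The efflux pumps rose, Abcc3 from 4.52, 4.43, 4.33 and 4.37 to 4.85, 4.83, 4.89 and 4.84, Abcc2 by 1.34-fold and Abcb1a by 1.52-fold. Nr1i3, the gene of CAR itself, fell 1.55-fold from 2.37 ± 0.04 to 1.74 ± 0.04. Gadd45b, a stress gene induced through CAR, read 1.05, 1.14, 1.11 and 1.07 without must and -0.32, -0.25, -0.40 and -0.40 with it, beside a control mean of -0.33 ± 0.04. The must arrays of Gadd45b thus lay at the control level, unlike those of Cyp2b10. Aldh1a7, a cytosolic aldehyde dehydrogenase, fell 1.65-fold. Outside that list, Kctd13, which guides a ubiquitin ligase and stood at 0.01 in the controls and 5.69 with p,p'-DDE, rose a further 1.40-fold on its brightest probe. The other kept Kctd13 probe gave 0.29 and was not called (limma adjusted p = 0.12 over all probes). Chil1, a secreted chitinase-like protein, fell 2.22-fold from 3.68 ± 0.06 to 2.53 ± 0.09 with its control mean at -2.05.

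Among targets of the dioxin receptor, Cyp1a2 read 5.20, 4.35, 4.79 and 4.50 without must and 4.92, 5.60, 5.13 and 5.44 with it. Its groups overlapped, and the call at 0.56 ± 0.19 (adjusted p = 0.025) was lost in 6 of 26 alternatives, among them leaving out DDE array 2 or 4 or must array 2 or 4. Cyp1a1, the other classical target, went the other way, by -0.86 ± 0.24 (adjusted p = 0.013) at a level near background, where 3 of 4 must arrays were well above it.

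NRF2 targets did not move as a group. Of 31 measured, 7 rose and 9 fell (7 to 15 and 5 to 8 over the other scalings). The subunits of the rate-limiting enzyme of glutathione synthesis rose slightly, Gclc by 1.25-fold (0.84, 1.14, 1.20 and 1.11 against 1.38, 1.51, 1.31 and 1.38) and Gclm by 1.32-fold, both with control means below the DDE arrays. Gss, the enzyme of the second step, fell 1.42-fold from 5.33 ± 0.04 to 4.82 ± 0.04, next to the control mean of 4.85 ± 0.06. The carbonyl reductases Cbr1 and Cbr3 fell 2.01-fold and 2.04-fold, and Akr1b7, an aldo-keto reductase, fell 1.77-fold from 4.94, 4.85, 4.94 and 4.92 to 4.08, 4.09, 4.08 and 4.10. Nqo1, the quinone reductase most often used as an NRF2 readout, was lower by 0.16 ± 0.048, a call lost with median centring and with the slide as a block. Hmox1, heme oxygenase 1, varied more within groups than between them: 1.31, 3.66, 2.90 and 3.43 without must and 3.26, 2.42, 3.30 and 1.11 with it (adjusted p = 0.73), and the sign turned without must array 4.

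**Figure D3:**
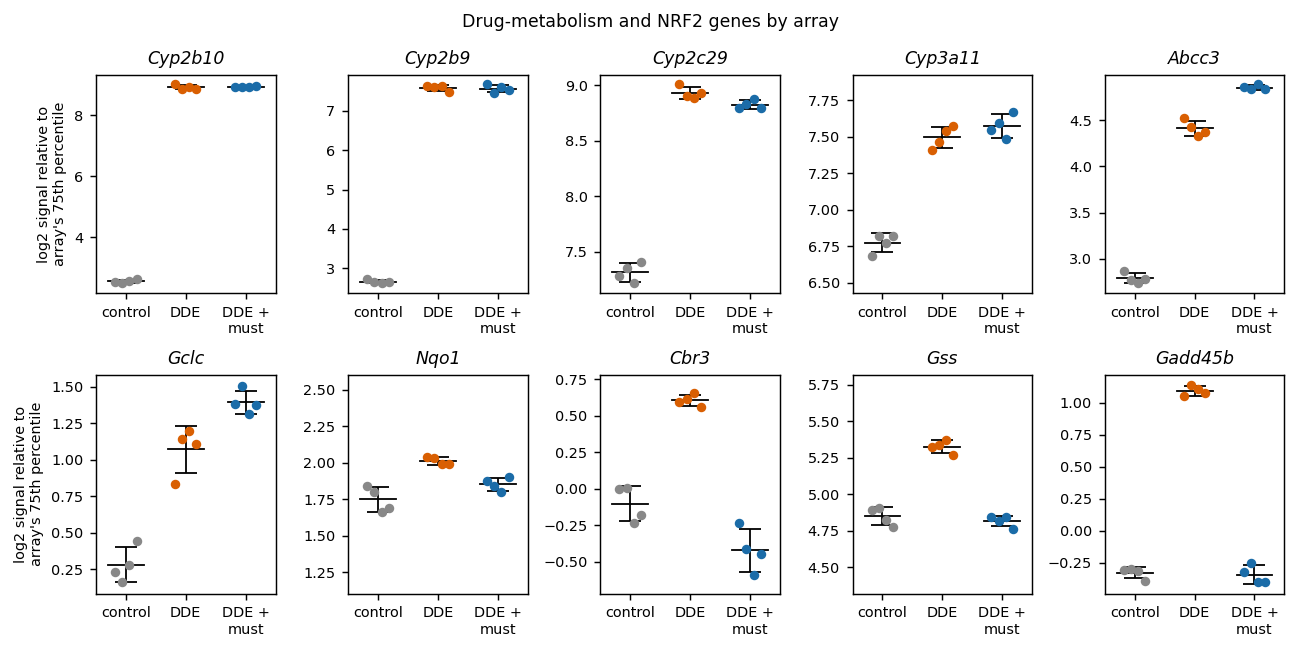
Levels of 10 drug-metabolism and NRF2 genes by array (vertical axes, log2 signal relative to the array's 75th percentile, each panel with its own range) in the control, DDE and DDE + must groups. Points are the 4 arrays of a group, horizontal lines the means and error bars the SD. Cyp2b10, Cyp2b9 and Cyp3a11 overlap between the DDE and must groups, Abcc3 and Gclc are higher with must, and Cbr3, Gss and Gadd45b are lower with must.

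Antioxidant enzymes gave 11 falls and 2 rises among 26 measured, with a median of -0.12 that lay between -0.10 and 0.03 over the other scalings, where 2 to 10 members fell and 3 to 6 rose. Gpx4, which reduces lipid peroxides in membranes, fell 1.39-fold from 6.60, 6.45, 6.41 and 6.50 to 5.99, 6.06, 5.96 and 6.08, and Prdx4, a peroxiredoxin of the endoplasmic reticulum, 1.40-fold. Catalase (Cat, 0.17 ± 0.067, adjusted p = 0.051) and Sod1 (-0.08 ± 0.058) were not called, although Cat was called higher in 10 of 26 alternatives and the sign of Sod1 turned with quantile normalisation. The other kept Sod1 probe was called lower, at -0.31 (limma adjusted p = 0.033 over all probes). Gpx1 was lower by 0.21 ± 0.053, but higher with quantile normalisation, with both corrections together and with the deposited values, so its direction depends on the scaling. Of 22 measured glutathione S-transferases, 5 rose and 5 fell, but over the other scalings 4 to 14 rose and 1 to 5 fell, with the median moving from -0.01 to as high as 0.23. Gstm4 rose 1.44-fold, and Gstt1 fell 1.57-fold from 5.52, 5.52, 5.44 and 5.50 to 4.88, 4.84, 4.83 and 4.84, close to its control mean of 4.79 ± 0.01.

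Stress genes moved in both directions. In the unfolded protein and integrated stress response, 15 of 32 members rose and 7 fell (17 to 19 and 4 to 6 over the other scalings). Phgdh, the first enzyme of serine synthesis, read -1.61, -1.88, -1.79 and -1.70 without must and -0.02, 0.08, 0.09 and 0.00 with it, while Psat1, the next enzyme, fell 1.72-fold. Chac1, a glutathione-degrading enzyme induced by ATF4, fell 2.02-fold, Nupr1, a stress-induced nuclear protein that is also high in pancreas, rose 1.99-fold, and Syvn1, a ubiquitin ligase of the endoplasmic reticulum, rose 1.36-fold. The summed signal of pancreatic acinar markers was 922 to 1023 without must and 4049 to 4148 with it, and its part here was not tested. Of 21 heat shock genes 8 rose and 4 fell (9 to 12 and 2 to 4 over the other scalings). Hspa1a, the inducible HSP70, read -1.43, -1.33, -1.39 and -1.39 without must and 0.42, 0.46, 0.31 and 0.35 with it, its near-identical copy Hspa1b rose 2.16-fold and the co-chaperone Bag3 1.45-fold.

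Genes of the cell cycle and of p53 were lower. Of 31 measured cell cycle genes 17 fell and 1 rose, with a median of -0.35 (-0.32 to -0.19 over the other scalings, with 14 to 19 lower). Rrm2, the S-phase subunit of ribonucleotide reductase, fell 2.00-fold from -0.57, -0.41, -0.49 and -0.56 to -1.34, -1.59, -1.64 and -1.46. Cyclin E1 (Ccne1) fell 1.37-fold and Pcna, the DNA polymerase clamp, 1.27-fold, and the rise was Ccnd2, cyclin D2, at 1.40-fold. Of 27 genes of the p53 response 15 fell and 1 rose (9 to 15 falls and 1 to 3 rises over the other scalings). Cdkn2a, the locus of the senescence inhibitor p16, read -0.48, -0.59, -0.76 and -0.64 without must and -1.97, -2.09, -1.93 and -2.13 with it, a 2.67-fold fall. Cdkn1a, the inhibitor p21, fell 1.86-fold to -0.41 ± 0.14, below its control mean of 0.58 ± 0.16. Gdf15, a stress hormone that curbs appetite, fell 1.79-fold from 4.33, 4.23, 4.26 and 4.17 to 3.41, 3.38, 3.45 and 3.40, with the controls lower still at 2.69 ± 0.12. The rise was Zmat3 (1.21-fold), whose call was lost in 8 of 26 alternatives, among them leaving out DDE array 1, 2 or 3 or must array 1 or 2.

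In the largest lists no member was called with a change of 2-fold or more. Of 48 cytosolic ribosomal protein genes 44 fell and 0 rose, with a median of -0.45, and 30 to 45 fell with medians of -0.43 to -0.17 over the other scalings. Rpl5 read 6.60, 6.48, 6.50 and 6.44 without must and 5.79, 5.79, 5.71 and 5.88 with it, and Rps23 fell 1.63-fold. Of 46 measured subunits of oxidative phosphorylation 27 fell and 4 rose, but over the other scalings 6 to 27 fell and 6 to 17 rose, with the median between -0.23 and 0.00. Cox7a2, of cytochrome c oxidase, fell 1.45-fold, with changes from -0.57 to -0.25 over the alternatives. Ribosomal genes have many processed copies in the genome, so their probes may read more than one locus.

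Liver genes that differ between the sexes are set by the rhythm of growth hormone. Among 26 measured female-biased genes 18 fell and 0 rose (15 to 18 falls and 0 to 2 rises over the other scalings), with a median of -0.42. Slc22a26, an organic anion transporter relative, read -1.13, -1.31, -1.17 and -1.33 without must and -2.82, -2.58, -2.54 and -2.43 with it, a 2.56-fold fall further below its control mean of 0.00. Abcd2, a peroxisomal transporter, fell 2.43-fold (-1.35 to -0.52 over the alternatives). The sulfotransferase Sult2a2, of this list, was at least 6.96-fold lower, and its relative Sult1d1 at least 3.78-fold lower. Of 27 male-biased genes 14 fell and 5 rose, and over the other scalings 6 to 13 fell and 5 to 9 rose. Hsd3b5, a male steroid dehydrogenase, fell 3.78-fold from -1.37 ± 0.14 to -3.29 ± 0.34 (-2.08 to -1.15 over the alternatives), whereas Cish, a direct STAT5 target, read 1.74, 1.90, 1.84 and 1.82 without must and 2.95, 2.84, 2.81 and 2.77 with it. Mup20, a major urinary protein, was lower by 0.25 ± 0.050, a direction that turned with quantile normalisation, with both corrections together and with the deposited values.

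The list of urea cycle and amino acid breakdown genes gave 14 rises and 7 falls among 40 (19 to 29 and 3 to 7 over the other scalings). Within the urea cycle Arg1, arginase, fell 1.63-fold from 6.33 ± 0.04 to 5.63 ± 0.02, and Cps1, its first enzyme, rose 1.26-fold from 3.68 ± 0.13 to 4.01 ± 0.12. In transsulfuration Cbs, the first step, rose 1.40-fold while Cth, the second, read 4.62, 4.93, 4.92 and 4.90 without must and 4.06, 3.89, 3.93 and 3.92 with it. Of 24 measured genes of bile acid synthesis and transport 7 rose and 8 fell, with a median of -0.04, but 7 to 12 rose and 3 to 9 fell over the other scalings, and the median reached 0.13. Nr0b2, the repressor SHP, rose 1.44-fold, and Cyp7a1, the rate-limiting enzyme, was lower by 0.20 ± 0.067 with overlapping groups (adjusted p = 0.028). That call was lost in 11 of 26 alternatives, among them leaving out DDE array 2, 3 or 4 or must array 2, 3 or 4.

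The list of metal and iron genes, which also holds the metallothioneins, gave 8 rises and 5 falls among 20 (9 to 12 and 2 to 4 over the other scalings). Slc30a10, a manganese exporter, rose 2.10-fold from -1.60 ± 0.09 to -0.53 ± 0.11, and Tfrc, the transferrin receptor, 1.51-fold on its brightest probe. The other kept Tfrc probe gave 0.33 and was not called (limma adjusted p = 0.12 over all probes). Nr4a1, an immediate early nuclear receptor, read -0.25, -0.22, 0.10 and -0.03 without must and 1.29, 1.22, 1.27 and 1.32 with it, at its control mean of 1.26 ± 0.12. Of 32 measured collagen and fibrosis genes 10 rose and 8 fell (7 to 17 and 6 to 8 over the other scalings). Mmp12, a macrophage elastase, fell near background, where only 2 of 4 must arrays were well above it, and its change lay between -1.58 and -0.49 over the alternatives. Timp1, an inhibitor of matrix proteases, fell 1.58-fold and Col3a1, collagen III, 1.43-fold to 1.13 ± 0.11, its control mean being 1.13 ± 0.05.

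**Figure D4:**
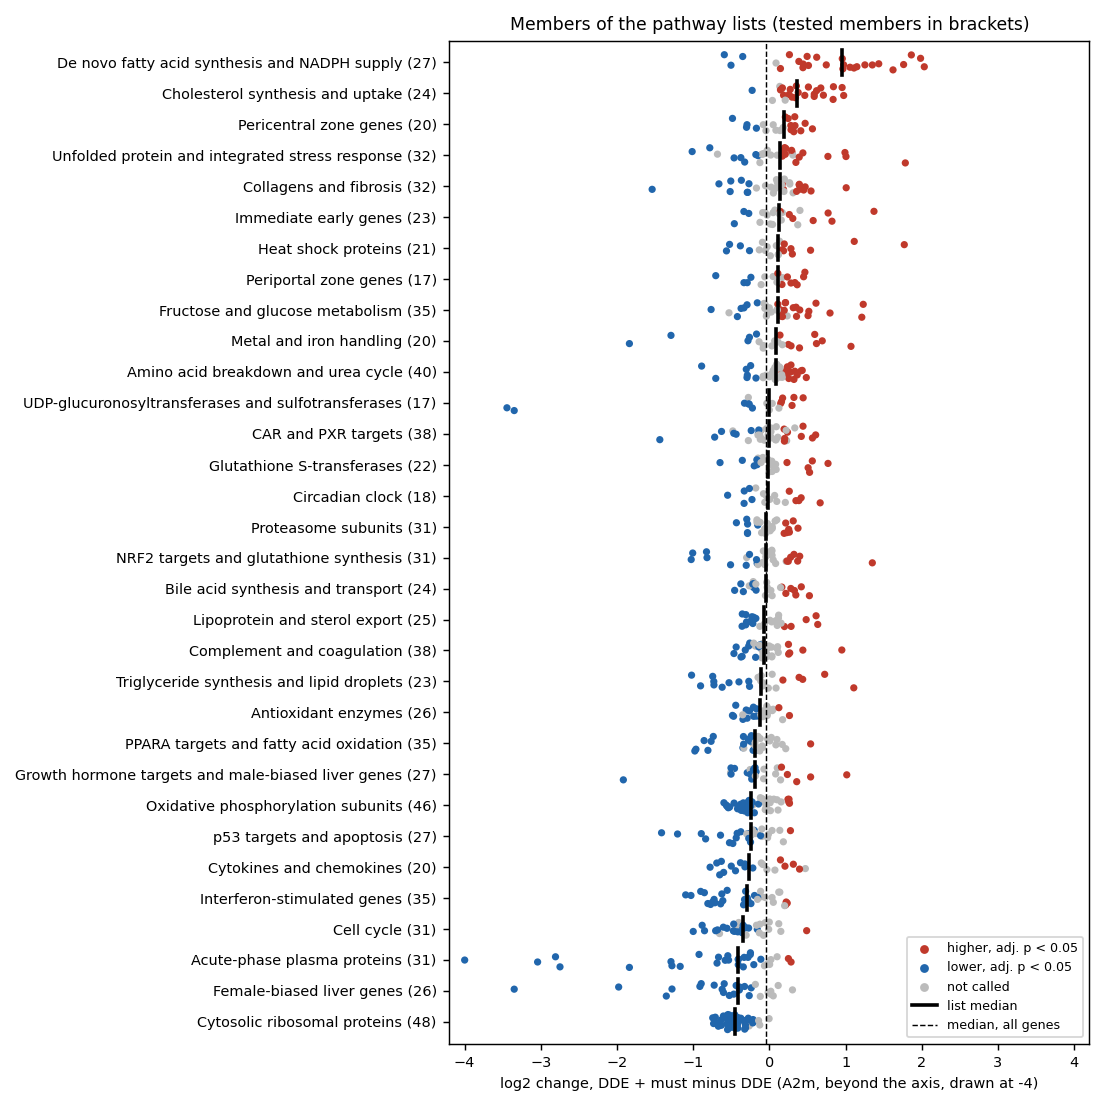
Change with must of every measured member of the pathway lists (horizontal axis, log2 DDE_PXM minus DDE; 1 point per gene, A2m drawn at the left edge at -4), with the list medians and a dashed line at the median of all genes, -0.04. Fatty acid synthesis (median 0.96) and cholesterol synthesis (0.37) lie to the right of that line, and ribosomal proteins (-0.45), female-biased genes (-0.42) and acute-phase proteins (-0.41) to its left.

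Outside these lists, the 15 largest falls among genes measured on all 8 arrays included Lypd8, a secreted antibacterial protein, Nnmt, which methylates nicotinamide, and Esm1, an endothelial secreted proteoglycan. Lypd8 read 2.79, 2.39, 2.39 and 2.38 without must and -0.74, -0.56, -0.62 and -0.55 with it, an 8.59-fold fall past its control mean of 1.01. Nnmt read 1.65, 1.74, 1.71 and 1.52 and then -0.56, -0.69, -0.67 and -0.73. Esm1 fell 4.16-fold. Cebpe, a factor of late granulocyte maturation, fell 4.21-fold at a low level (-2.14 to -0.92 over the alternatives). Rtkn2 fell 6.15-fold and Wfdc18, a small secreted inhibitor, 4.84-fold, also at low levels, where the changes ranged from -2.85 to -1.37 and from -2.40 to -1.16 over the alternatives. The 15 largest rises were Akr1cl, kallikreins and genes of adrenal and pancreas, described next. Akr1cl, an aldo-keto reductase, rose 10.7-fold from -1.92 ± 0.10 to 1.49 ± 0.08 on its brightest probe, with the control mean at 1.04, and by 5.69 on the log2 scale on its other kept probe (2.92 to 4.56 over the alternatives). The kallikreins Klk1, Klk1b3, Klk1b4, Klk1b8 and Klk1b24 rose 8.54-fold to 10.2-fold, but they are near-identical neighbours on chromosome 7 and their signals cannot be separated by these probes with certainty.

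Markers of tissues other than liver differed sharply between the groups. Hepatocyte markers were high throughout: Alb, albumin, stood at 9.83 ± 0.03 (SD, n = 3, DDE array 1 dropped as an outlier spot) and 9.65 ± 0.09 (SD, n = 4). Alb was called lower, at -0.17 ± 0.065 (limma adjusted p = 0.047), a call lost in 18 of 26 alternatives. The other kept Alb probe was also called lower, at -0.30 (adjusted p = 0.034 over all probes). Hnf4a was not called (-0.14 on its brightest probe), but it was called lower in 4 of 26 alternatives, leaving out DDE array 1 or must array 1 among them, and its sign turned under 4 of the 5 other scalings. Of 15 measured hepatocyte markers 8 fell and 1 rose (0 to 7 and 1 to 4 over the other scalings), and their summed signal was 5697 to 6501 with p,p'-DDE and 5537 to 6034 with must.

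Pancreatic acinar genes gave the widest shift of any list. All 29 measured of 31 were called, 28 higher and 1 lower, in each of the 26 alternatives, with a median of 2.68 (2.51 to 2.84 over the other scalings). Their summed signal was 1184 to 1257 in the controls, 922 to 1023 with p,p'-DDE and 4049 to 4148 with must. Pnliprp1, a lipase relative, read 2.23, 2.13, 2.15 and 2.12 without must and 5.46, 5.57, 5.56 and 5.54 with it, and Cpa1, carboxypeptidase A1, read 4.05, 3.98, 4.06 and 4.07 and then 7.11, 7.24, 7.17 and 7.24. For both genes every must array stood above every DDE array. Pnliprp2 rose 17.1-fold (3.48 to 4.24 over the alternatives), Ctrl, a chymotrypsin-like protease, 10.3-fold, Cel, the bile salt-stimulated lipase, 9.62-fold, and colipase (Clps) 6.39-fold. Aqp12, a water channel of acinar cells that is not on the list, rose 9.49-fold (2.24 to 3.39 over the alternatives). The exception was Reg2, a regenerating islet-derived protein, which fell 3.58-fold (-1.91 to -0.91 over the alternatives). Of 11 measured islet markers 5 rose and 2 fell (5 to 6 and 0 to 2 over the other scalings), with a median of 0.11. Among them Ins1 and Ins2 rose 1.53-fold and 1.56-fold (Ins2 from 2.30, 2.13, 2.22 and 2.13 to 2.79, 2.90, 2.74 and 2.93), their control means being 0.06 and -0.20. Gcg, glucagon, was lower by 0.79 ± 0.29 on its brightest probe and by 0.07 on its other, and that call was lost in 15 of 25 alternatives, among them leaving out control array 2 or any DDE or must array.

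The steroid-making genes of the adrenal that rose and are named here stood lower in the DDE arrays than in either other group. Of 14 measured adrenal cortex markers 10 rose and 3 fell, with a median of 0.83 (9 to 12 and 1 to 2 over the other scalings). The sum of their signals, 350 to 376 and 364 to 380, comes mostly from bright members that liver also expresses. The 3 that fell were Akr1b7, described above, whose DDE level of 4.91 lay over its control mean of 3.96, Fdx1, ferredoxin 1 (-0.13 ± 0.048), and Por, the P450 reductase (-0.14 ± 0.043). The call of Fdx1 was lost in 13 of 26 alternatives, among them leaving out control array 4, DDE array 1, 3 or 4 or any must array, and that of Por in 2, and both turned higher with quantile normalisation, with both corrections together and with the deposited values. Star, the mitochondrial cholesterol importer of steroid-making cells, read -3.20, -3.27, -3.26 and -3.32 without must and 3.15, 3.24, 3.15 and 3.18 with it, the control mean being 2.14 ± 0.03. Its change lay between 5.39 and 6.59 over the alternatives. Cyp21a1, steroid 21-hydroxylase, rose 29.1-fold and Hsd3b1, a steroid dehydrogenase of a family of close paralogs, 64.7-fold on its brightest probe (4.27 to 6.16 over the alternatives) and by 2.52 on the log2 scale on its other. Cyp11b1, Mgarp and Cyp11a1 were not well above background on any DDE array and were at least 62.6-fold, 45.1-fold and 44.6-fold higher with must. Nr5a1, the factor SF-1 that defines steroid-making cells, rose 2.19-fold from 0.20, 0.33, 0.29 and 0.42 to 1.43, 1.44, 1.45 and 1.45.

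Of 9 measured markers of the adrenal medulla, 7 rose and 1 fell (7 and 0 to 1 over the other scalings). Chromogranin B (Chgb) was at least 30.1-fold, Pnmt, which makes adrenaline, at least 6.49-fold and Dbh, which makes noradrenaline, at least 3.63-fold higher. Th, tyrosine hydroxylase, rose 2.57-fold from -1.81, -2.18, -1.93 and -1.75 to -0.75, -0.46, -0.48 and -0.54, and Chga, chromogranin A, 2.45-fold. The control means of these genes lay above the DDE arrays too (Th at -0.22, Chga at 0.94). Among the adrenal genes named that rose, DDE was thus the low group, while Akr1b7 was highest in DDE. Fdx1 and Por were highest in DDE with the main scaling only, since their direction between DDE and must turned with other scalings, as given above.

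**Figure D5:**
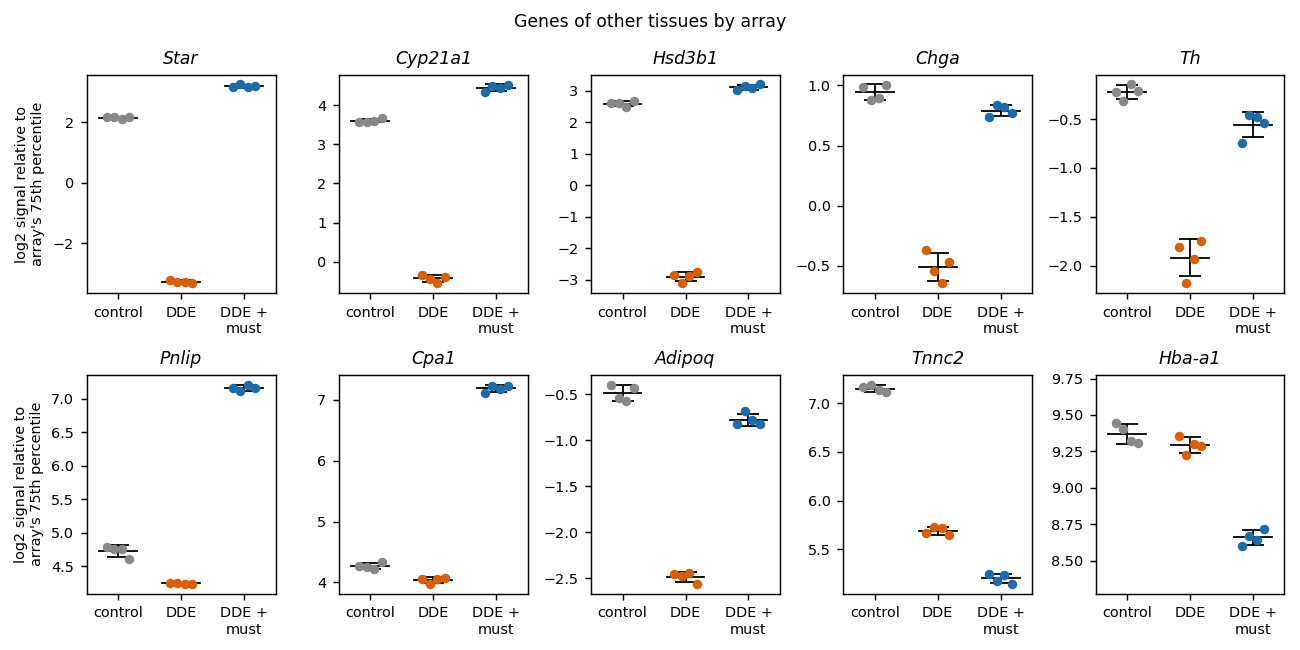
Levels of 10 marker genes of tissues other than liver by array (vertical axes, log2 signal relative to the array's 75th percentile, each panel with its own range) in the control, DDE and DDE + must groups. Points are the 4 arrays of a group, horizontal lines the means and error bars the SD. Star, Cyp21a1, Hsd3b1, Chga, Th and Adipoq are low in the DDE group, Pnlip and Cpa1 are high in the must group, Tnnc2 falls from control to DDE to must, and Hba-a1 is low in the must group.

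Fat, muscle and blood markers moved as well. Of 15 adipocyte markers 7 rose and 4 fell (7 to 8 and 3 to 4 over the other scalings), with changes from -0.74 to 1.71. Their summed signal, 98.1 to 113 with p,p'-DDE and 98.8 to 120 with must, overlapped between the groups, but dim members such as Adipoq weigh little in it. The members named next are all among those that rose. Adipoq, the hormone adiponectin, read -2.45, -2.47, -2.45 and -2.56 without must and -0.82, -0.68, -0.78 and -0.82 with it, Retn, resistin, rose 1.96-fold, and Cfd, adipsin, 1.93-fold to 2.73 ± 0.06, short of its control mean of 4.30 ± 0.05. None of 17 skeletal muscle markers rose and 14 fell (1 to 2 and 11 to 14 over the other scalings), with a median of -0.42. Their summed signal was 585 to 605 in the controls, 221 to 239 with p,p'-DDE and 168 to 181 with must. Tnnc2, fast troponin C, fell 1.40-fold and Mylpf, a fast myosin light chain, 1.53-fold.

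Of 10 measured erythroid markers 7 fell and 0 rose (7 to 9 falls over the other scalings). Hba-a1, alpha globin, read 9.36, 9.23, 9.30 and 9.29 without must and 8.60, 8.67, 8.64 and 8.72 with it, the beta globin Hbb-b2 fell 2.30-fold and Ahsp, the alpha globin chaperone, 4.05-fold (-2.12 to -1.10 over the alternatives). The summed erythroid signal was 1358 to 1473 in the controls, 1277 to 1406 with p,p'-DDE and 822 to 883 with must. Genes of stratified epithelium gave 6 falls and 2 rises among 16 measured (4 to 9 falls and 2 to 4 rises over the other scalings). Krt13, a mucosal keratin, was at least 3.22-fold lower, Krtdap, a keratinocyte protein outside that list, fell 4.79-fold on its brightest probe but by 4.83 and 4.86 on the log2 scale on its other kept probes (-3.98 to -1.29 over the alternatives), and Ly6d rose 7.63-fold from -2.50, -3.97, -3.67 and -3.75 to -0.46, -0.50, -0.61 and -0.59 (1.95 to 3.25 over the alternatives). Kap, an androgen-regulated kidney protein, was at least 7.31-fold higher, with 2 of 4 measured kidney tubule markers higher. How these other-tissue signals bear on the liver genes above was not tested.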

How the data were processed

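Liver RNA was hybridised with Cy3 to one-colour Agilent arrays, 1 per sample, per the labels' protocols. The deposited scanner files give an intensity per spot, which the authors' scanner software had corrected by spatial and multiplicative detrending, per the file headers. RMA, limma and version 11.5.1.1 of Agilent Feature Extraction are named, without their roles, in the submitters' processing notes. The authors also deposited a table of values on a log2 scale. Its scale was found by setting it against the scanner values (correlation 0.9949 to 0.9964 across probes, column medians 5.324 to 5.348), and how it was made is not stated there.

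From the intensities, log2 of the processed signal minus each array's 75th percentile over 59305 spots other than controls was computed. Outlier spots (102 to 177 per array) were left out and spots of a probe averaged. A probe was kept, as 27098 of 56605 were, if at least 1 group had it well above background on every array. A gene was read by its brightest kept probe (18678 genes, 6103 with several probes). Levels of different genes' probes are not comparable, and summed marker signals are linear values for comparison between arrays only. Testing used limma 3.58.1 in R 4.3.3 (files read with data.table, version 1.17.8), with 12 arrays in 1 fit, group as the only term, 9 residual degrees of freedom, eBayes and Benjamini-Hochberg adjustment over all genes. The fit was tested on simulated data. Gene names and mm9 positions are those of the files.

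The comparison, its 52 gene lists and the naming rule were chosen with earlier results of these data known. The rule takes the 15 genes with the largest called rise and the 15 with the largest fall, measured on all 8 arrays and not overlapping, per list up to 5 called members of smallest p, the defining cell type markers, and genes fixed by name. The text names only some of these, chosen after their values were seen, plus 31 genes beyond the ranked and fixed ones, among them defining markers, exceptions within lists and others chosen after their values were seen (Dgat1, Dgat2, Elovl6, Pnpla3 and Pnpla5). Some genes of the rule are not reported here. Arrays lay on 5 slides, each scanned on its own, and 3 slides held 1 array of each of the 2 groups. Alternatives were other scalings, background correction, filters, probe rules, model settings, slide or replicate number as a block, and each array left out.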

Additional observations from a re-analysis of the deposited data

Results flagged for a closer look

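In groups of 4 arrays, 24 of 389 gene-and-group sets (6.17%) had 1 array set apart from the other 3 by Dixon's test, which chance alone does in about 1 set in 20. They are given as log2 levels. DDE array 1 stood apart 7 times: Psat1 at -0.21 (others -0.34 to -0.33), Cth at 4.62, Cyp7a1 at 2.96, Lypd8 at 2.79, Ahsp at -1.25, Hnf4a at 5.65 and Cps1 at 3.48. DDE array 2 stood apart for Khk at 8.07, Mx1 at -0.079 and Akr1b7 at 4.85, and DDE array 3 for Retn at -2.19. DDE array 4 stood apart for Acss2 at 4.60, Cyp2b9 at 7.48 and Igtp at 4.05. Among the must arrays, array 1 stood apart for Acly at 7.40 (others 7.32 to 7.33), A2m at -5.14 (others -6.76 to -6.56, all below background), Cox7a2 at 6.99 and Rtkn2 at -3.53. Must array 3 stood apart for Vnn1 at 1.52, Mmp12 at -4.84, Aqp12 at -0.39 and Retn at -1.33, and must array 4 for Abcb1a at 1.76 and Dgat2 at 7.28. For the called genes among these the 2 groups did not overlap, except for Cyp7a1.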

How the results depend on the processing

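Of 183 called genes followed through the alternatives, 167 were called in the same direction under all of the 26 alternatives that could be run for them. These are genes named in the text, many picked for small p or large change, so this share does not describe all calls. Of all 9320 called genes, 7076 (median centring) to 8716 (normexp) stayed called over the 5 other scalings, with 7646 for the deposited values. Counts of calls moved past 1.5 times with median centring (6476 higher, 3295 lower), without a filter on dim probes (10646 lower of 37074), and, for changes of 2-fold or more, with normexp (128 higher, 159 lower), normexp with quantile normalisation, called RMA-like here (145 higher, 123 lower), and probes above background on all 12 arrays (152 higher, 262 lower). The cause was not tested, except that filters change the genes tested. Without the filter 24.5% of called genes were higher. Among lists, CAR and PXR targets had 19, 20, 14 and 20 higher and 5, 5, 5 and 4 lower with quantile normalisation, RMA-like, median centring and the deposited values. Under each of these 4 settings cholesterol synthesis had 0 lower (2 with the mean of kept probes) and adrenal cortex 1 lower. Acute-phase proteins had 6 higher with quantile normalisation, RMA-like and the deposited values, and fructose and glucose metabolism 3 lower with the last 2. The single neutrophil rise was lost (0) with the deposited values, no filter, array weights, only the 8 arrays compared, and the replicate block. Leaving out 1 array each gave 0 to 1 falls in cholesterol synthesis, 11 to 17 rises in fructose and glucose metabolism, 0 to 1 neutrophil rises, and 3234 to 3813 higher and 4982 to 5576 lower genes in all. Among followed genes called on at least 1 side, signs that turned, in the order quantile normalisation, RMA-like and deposited values, were Cyp2b9 at 0.26, 0.25 and 0.21, Cyp2c29 at 0.26, 0.18 and 0.26, Gpx1 at 0.071, 0.082 and 0.11, Mup20 at 0.12, 0.091 and 0.096, Fdx1 at 0.13, 0.12 and 0.15 (0.014 with median centring), Por at 0.11, 0.15 and 0.15, and Sod1 at 0.21 with quantile normalisation only. With no call on either side, signs also turned for Hnf4a (4 scalings), Tnf (median centring), Hmox1 (without must array 4) and Cyp4a14 (normexp). Same-numbered arrays of the 2 groups did not deviate together (correlations of -0.37, -0.19, -0.11 and -0.23), and those numbered 3 also shared a slide. Pairs on a shared slide gave 0.35 (DDE array 1 with must array 4), 0.29 (DDE array 2 with must array 1) and -0.11 (arrays 3). The part of the slide in these was not tested. The replicate block called 3438 genes higher and 5162 lower, and the slide block 3827 and 5381. Precision is limited by 4 arrays per group, and dim genes are limited by background.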

Other observations

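Zonation genes of the liver lobule, not described above, were more often higher than lower in both zones. Of 20 measured pericentral genes 10 rose and 4 fell, with a median of 0.19 (0.17 to 0.34 over the other scalings, with 10 to 14 rises), and of 17 periportal genes 8 rose and 4 fell, with a median of 0.11 (9 to 12 and 2 to 4 over the other scalings). Complement and coagulation genes gave 5 rises and 10 falls among 38 measured, but 6 to 23 rises and 4 to 8 falls over the other scalings, so their balance depends on the scaling. Lipoprotein genes gave 5 rises and 11 falls among 25, with 7 to 12 rises and 2 to 11 falls over the other scalings. Proteasome subunits gave 7 rises and 7 falls among 31, but 7 to 19 rises and 0 to 6 falls over the other scalings.

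Of 18 measured clock genes 5 rose and 5 fell (6 to 8 and 3 to 5 over the other scalings), and of 23 immediate early genes 7 rose and 3 fell (8 to 13 and 2 to 4). Among other cell types, stellate cell and fibroblast markers gave 8 falls and 2 rises among 15 and a median of -0.22, but 4 to 8 falls, 2 to 4 rises and medians of -0.17 to 0.01 over the other scalings, with summed signals of 170 to 174 without must and 140 to 152 with it. Liver endothelial markers gave 4 rises and 3 falls among 14 (4 to 8 and 0 to 3 over the other scalings), and their summed signals of 67.7 to 72.8 and 67.9 to 68.6 overlapped. Cholangiocyte markers gave 4 rises and 1 fall among 11 (3 to 7 rises over the other scalings), and monocyte markers 2 rises and 6 falls among 10 (3 to 4 and 4 to 6). B and plasma cell markers gave 4 falls and 0 rises among 9 (2 to 6 falls), mesothelial markers 2 of each among 7 (2 to 3 rises and 0 to 3 falls), and intestinal markers 4 falls and 0 rises among 5 (3 to 5 falls). Of 17 measured UDP-glucuronosyltransferases and sulfotransferases 6 rose and 6 fell (7 to 9 and 2 to 7 over the other scalings).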
